A study of Mus musculus with 10 samples.

Results

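Solute carriers are membrane proteins that move small molecules across the plasma membrane or the membranes of organelles, and their gene symbols begin with Slc and a family number. The genes described here are those whose symbol begins with Slc followed by a digit and which reached 1 FPKM or more in at least 1 sorted fraction. They number 221 of the 368 Slc rows and of the 32361 rows of the deposited table. FPKM is a read count scaled to transcript length and sequencing depth, which is meant to make levels of different genes comparable. Whether it does so for each gene was not tested. The remaining 147 Slc rows stayed under 1 FPKM in every fraction, 11 of them at 0 throughout.

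The cells were E14Tg2a.4 mouse embryonic stem (ES) cells, sorted by fluorescence. In the first line Esrrb and Tbx3, which encode transcription factors of naive pluripotency, were each tagged by a knock-in with its own fluorescent protein. It gave 3 fractions: cells positive for both reporters (double-positive, Esrrb+/Tbx3+ in the figures), cells with Esrrb but no Tbx3 signal (single-positive, Esrrb+/Tbx3-) and cells with neither (double-negative, Esrrb-/Tbx3-). In the other line a piggyBac insertion with a fragment of the Zscan4c promoter marked a rare state with transcripts of the early embryo, and Zscan4-positive and Zscan4-negative cells were taken; a promoter fragment need not follow the whole gene. Each fraction had 2 libraries collected on different days, but the table gives 1 merged value for each, so no difference below has a replicate error or a p-value, and depth is unknown. How many clones each line came from is not given in the sources used here. Differences are of log2(FPKM + 1), the fraction named first minus the other, and "higher" or "lower" as a call means at least 2-fold on that scale.

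ES cells divide fast, and amino acid carriers, hexose carriers and nucleoside carriers feed their protein and nucleic acid synthesis. Amino acid carriers of the SLC7 family work as light chains bound to the heavy chain encoded by Slc3a2 or on their own. Hexoses enter through the SLC2 (GLUT) family, lactate leaves through SLC16 carriers, and SLC25 carriers pass nucleotides, phosphate and metabolites through the inner mitochondrial membrane. The 221 genes were placed by family and known substrate in amino acid (37 genes), sugar (18), ion (62), nucleotide (28), carboxylate (7), other mitochondrial (19) and other (45) classes. The nucleotide class includes carriers of nucleosides, nucleobases, nucleotides and nucleotide sugars. A further 5 symbols match the name but encode no carrier, for example Slc9a3r1, a scaffold protein at 40.4 FPKM in double-positive and 60.5 FPKM in double-negative cells.

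The sorts and the cell type were read from marker genes first. Esrrb stood at 243 FPKM in double-positive, 177 in single-positive and 43.3 in double-negative cells, Tbx3 at 12.6, 1.75 and 0.638 FPKM across these, and Zscan4c at 120 FPKM in Zscan4-positive against 0.255 FPKM in Zscan4-negative cells. All 6 ES cell markers examined were above 1 FPKM in every fraction. Their summed level was 4494 FPKM in double-positive, 3490 in single-positive, 2434 in double-negative, 4148 in Zscan4-positive and 4053 in Zscan4-negative cells. The summed level of 13 fibroblast markers was 370 FPKM in double-positive, 1997 in single-positive and 2646 in double-negative cells, while Zscan4-positive cells had 332 and Zscan4-negative cells 312 FPKM. Over 13 T lymphocyte markers, of which Thy1 is on both lists, it was 43.3, 459, 631, 33.6 and 31.0 FPKM in the same order. In double-negative cells 11 of the fibroblast and 12 of the T lymphocyte markers reached 1 FPKM, and none was at 0. Below 1 FPKM were the fibroblast markers Dcn (0.217) and Lum (0.0145) and the T lymphocyte marker Cd5 (0.803 FPKM). Lum was higher in double-positive cells, at 0.144 FPKM. Of the double-positive fibroblast sum, Fn1 alone had 231 and Vim 110 FPKM. In Zscan4-positive and Zscan4-negative cells the fibroblast marker Lum was listed at 0. Sums of 3 red cell precursor markers stayed under 1 FPKM in every fraction, and 5 macrophage markers summed to 13.3 to 35.4 FPKM, with Adgre1 at 0 in double-positive and Zscan4-positive cells. Of these, the leukocyte gene Ptprc was at 0.742 FPKM in double-positive, 16.3 in single-positive and 23.9 in double-negative cells, like the T lymphocyte sum, while Cd68 was at 18.4, 11.97 and 10.9 FPKM. The fibroblast and T lymphocyte lists were thus highest in single-positive and double-negative cells, and any carrier gene that was lower in double-positive cells than in either of these has to be read beside these sums. The ES cell sum was lowest in double-negative cells, but it includes Esrrb, a gene of the sort, so the sort partly fixes this. The other markers in that sum, Pou5f1, Sox2, Klf4, Nanog and Zfp42, were each also lowest in double-negative cells. Carriers that were higher in double-positive cells have to be read beside the ES cell sum. The part of these marker sums in either result was not tested. In sorted bulk RNA, fewer cells of a type and less RNA per cell cannot be told apart.

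Most carrier genes had like levels in all 5 fractions. For 165 of the 221 (74.7%) the 5 values spanned less than 2-fold, against 76.0% of the 13595 rows of the table at 1 FPKM or more. The summed Slc level was 5963 FPKM in double-positive, 5759 in single-positive, 5451 in double-negative, 5756 in Zscan4-positive and 5896 in Zscan4-negative cells, which was between 1.04% and 1.11% of each column's total. In all, 14 genes reached 1 FPKM in a single fraction, 11 of them in double-negative, 2 in double-positive and 1 in Zscan4-positive cells. Each passed the minimum through that fraction alone. The matching share over all rows was not counted, so this describes the 14 genes and no more. At the 1 FPKM minimum, Slc19a3, a thiamine carrier, was just inside with 1.02 FPKM, and Slc51a just outside with 0.951 FPKM.

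The most abundant carriers included the mitochondrial ADP/ATP exchanger Slc25a5, at 715 FPKM in double-positive, 645 in single-positive, 513 in double-negative, 693 in Zscan4-positive and 667 in Zscan4-negative cells, and the mitochondrial phosphate carrier Slc25a3, at 507, 489, 486, 449 and 508 FPKM, fraction by fraction. Slc25a4, the other abundant ADP/ATP exchanger, was at 270, 363, 335, 344 and 413 FPKM. It was lowest in the double-positive fraction, where Slc25a5 was highest. Reads of such mitochondrial carrier genes can also match processed pseudogenes, which limits single values. The glycolysis gene Gapdh, read as a check, was at only 1.16 FPKM in double-positive and 0.845 FPKM in double-negative cells. Single-positive, Zscan4-positive and Zscan4-negative cells had 1.22, 1.02 and 1.24 FPKM of Gapdh. The cause of these low values was not tested, so ranks and comparisons between different genes are uncertain. The hexose carriers Slc2a3 (GLUT3) and Slc2a1 (GLUT1) were also among the most abundant and are described below with their pair. Among amino acid carriers the glutamine and neutral amino acid importer Slc38a2 led with 189 FPKM in double-positive, 183 in single-positive, 225 in double-negative, 139 in Zscan4-positive and 184 in Zscan4-negative cells. The heavy chain Slc3a2 was at 162, 145, 157, 128 and 142 FPKM, and its partner Slc7a5 (LAT1), an importer of large neutral amino acids, at 125, 116, 113, 90.7 and 102 FPKM. All 3 were lowest in Zscan4-positive cells, each by less than 2-fold. The phosphate importers Slc20a1 and Slc20a2 had ranges of 84.8 to 129 FPKM and 44.0 to 53.4 FPKM over the 5 fractions. The mitochondrial carriers Slc25a39 (glutathione), Slc25a1 (citrate), Slc25a17 (a family member of peroxisomes) and Slc25a11 (oxoglutarate) had ranges of 101 to 136, 65.8 to 100.3, 37.5 to 41.9 and 31.6 to 41.9 FPKM.

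**Figure D1:**
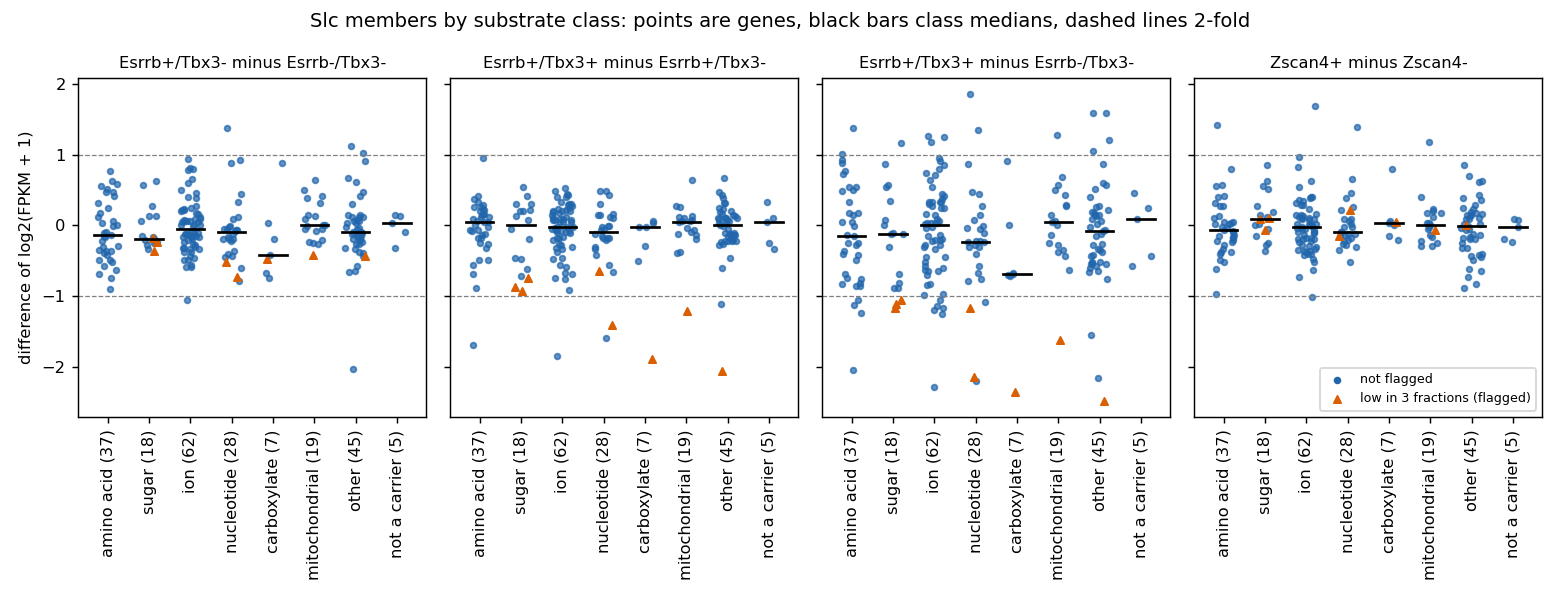
Differences of log2(FPKM + 1) for the 221 Slc genes by substrate class (numbers of genes in brackets) in 4 comparisons; each point is 1 gene with 1 value per fraction, black bars are class medians, dashed lines mark 2-fold and triangles the 8 flagged genes, which had at most 0.25 of the double-negative value in 3 other fractions. Class medians lie near 0 apart from carboxylate carriers (-0.69 for double-positive minus double-negative cells), and the lowest single value is -2.49, of Slc22a3, in the same panel.

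A looser size of 1.5-fold takes in more of the genes with small differences. At that size 20 carriers were higher and 13 lower in single-positive than double-negative cells, where 5.1% and 5.49% of all rows were, and 3 were higher and 24 lower in the Tbx3 step, where 1.68% and 12.4% were. Between the ends 30 were higher and 54 lower, where 9.92% and 20.5% were. In the Zscan4 sort 16 were higher and 10 lower, where 7.61% and 3.59% were, and between the 2 lines 9 were higher and 6 lower, where 3.88% and 3.02% were. All counts that follow are at 2-fold.

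The first comparison asks which carriers accompany Esrrb while Tbx3 is low: single-positive against double-negative cells. Only 3 of 221 genes were higher, where 1.82% of all rows were, and 2 were lower, where 1.43% were. The 3 are a nucleoside carrier, a peptide carrier and a choline carrier, and the promoter sequence of each is shown to let their make-up be compared. Slc28a1 encodes a sodium-driven importer of pyrimidine nucleosides and lies on chromosome 7 (mm10, 81114799 to 81170416, plus strand). It was at 23.4 FPKM in single-positive and 8.42 FPKM in double-negative cells, a difference of 1.37, and at 33.2 FPKM in double-positive cells. Slc15a1 encodes the proton-driven importer of di- and tripeptides known from the gut (chromosome 14, 121459621 to 121505254, minus strand) and was at 4.90 against 1.72 FPKM, a difference of 1.12. Slc44a1 encodes a choline carrier (chromosome 4, 53440413 to 53622478, plus strand) and was at 35.1 against 16.7 FPKM, a difference of 1.03, which became 0.99 once columns were scaled to equal totals.

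The 250 bases before the RefSeq start of these 3 genes, from GRCm38.p6, the assembly named mm10, are printed 5′ to 3′ on the gene's strand with every CG pair in capitals: chr7:81114549-81114798 on the plus strand for Slc28a1, chr14:121505255-121505504 on the minus strand for Slc15a1 and chr4:53440163-53440412 on the plus strand for Slc44a1, the first of 2 RefSeq windows for that gene.
Slc28a1: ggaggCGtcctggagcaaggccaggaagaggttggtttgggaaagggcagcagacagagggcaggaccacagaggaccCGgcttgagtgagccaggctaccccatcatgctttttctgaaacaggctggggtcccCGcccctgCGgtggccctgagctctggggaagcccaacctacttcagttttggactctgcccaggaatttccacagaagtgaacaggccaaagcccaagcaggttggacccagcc
Slc15a1: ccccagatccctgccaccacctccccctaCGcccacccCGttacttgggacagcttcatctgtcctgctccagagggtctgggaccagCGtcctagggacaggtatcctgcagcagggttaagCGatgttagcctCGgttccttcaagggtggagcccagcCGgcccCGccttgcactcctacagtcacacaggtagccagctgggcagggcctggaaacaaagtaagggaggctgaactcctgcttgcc
Slc44a1: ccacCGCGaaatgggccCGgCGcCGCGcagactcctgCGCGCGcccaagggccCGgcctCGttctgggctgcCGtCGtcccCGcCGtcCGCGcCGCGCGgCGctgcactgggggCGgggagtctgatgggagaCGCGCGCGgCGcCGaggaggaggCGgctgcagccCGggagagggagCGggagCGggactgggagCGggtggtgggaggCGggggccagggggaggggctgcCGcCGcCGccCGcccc
They hold 4, 7 and 38 CG pairs, a wide spread for 3 genes. The median over 32851 such windows of all genes was 6, and over the 222 windows of the 168 matched Slc genes 13. The windows of all genes had no minimum level, while the Slc genes had to reach 1 FPKM. These medians and the motif shares that follow therefore compare unlike sets. The letters TCAAGGTCA, known as the binding motif of ESRRB, were searched on both strands. They are in none of the 3 windows and in none of the 168 Slc genes, and in 0.422% of all 27025 genes with a window. The shorter AAGGTCA, which is contained in it, was in 2.98% of the Slc genes and 4.70% of all genes, and the T-box letters TCACACCT in 1.19% and 1.30%. Among the 13 Slc genes at least 2-fold higher in double-positive cells than in the double-negative fraction, 7 had a window and none held any of the 3 motifs.

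One of the lower genes of this comparison, picked out after its values were seen, was Slc9a7, an X-linked gene for a sodium-proton exchanger of the Golgi. It was at 0.613 FPKM in single-positive against 2.35 FPKM in double-negative cells, a difference of -1.06. In double-positive cells it was low as well, at 0.513 FPKM.

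By class, the median difference between single-positive and double-negative cells was -0.14 for amino acid, -0.19 for sugar, -0.05 for ion, -0.10 for nucleotide, -0.42 for carboxylate and 0.01 for other mitochondrial carriers, beside -0.02 over all rows and -0.09 over all 221 genes. The 7 carboxylate genes, all SLC16 carriers, included Slc16a3 (MCT4), which exports lactate, at 46.9 in single-positive against 79.0 FPKM in double-negative cells. Its relative Slc16a1 (MCT1) was at 42.6 against 41.5 FPKM. Within the ion class, the 7 cation-chloride cotransporters of the SLC12 family had a median of 0.38, while the 8 sodium-proton exchangers of the SLC9 family had a median of -0.16. In the nucleotide class the equilibrative nucleoside carrier Slc29a1 (ENT1) was at 173 against 93.3 FPKM, a difference of 0.88 just under 2-fold. The 14 nucleotide sugar carriers of the SLC35 family, which supply sugars for glycosylation in the Golgi and endoplasmic reticulum, had a median of -0.20 and a range of -0.52 to 0.09.

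The Tbx3 step, double-positive against single-positive cells, had 0 higher carriers, where 0.346% of all rows were higher, and 8 lower ones (3.62%), where 6.94% of all rows were lower. The largest positive difference, 0.96, belonged to Slc1a1, a glutamate and aspartate importer, at 2.98 against 1.05 FPKM. Another gene overlaps 31.9% of its exonic bases in GENCODE M21, so its value is uncertain. With a smaller pseudocount of 0.1 or 0.5 in place of 1 there was 1 higher carrier, and the lower ones numbered 21 or 14. The shares of all rows at these pseudocounts were not counted, so the 21 and 14 cannot be set against them.

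The 8 lower carriers were low genes, none above 11.2 FPKM in single-positive cells. Slc48a1, a heme carrier of lysosomes, was at 4.61 in double-positive, 11.2 in single-positive and 15.5 FPKM in double-negative cells, while Zscan4-positive cells had 4.01 and Zscan4-negative cells 4.25 FPKM. Slc16a10, a carrier of aromatic amino acids, was at 1.12, 5.83, 7.73, 2.72 and 1.495 FPKM across the fractions as just listed. Slc43a3, a carrier of purine nucleobases, was at 1.25, 5.79, 9.36, 3.95 and 2.13 FPKM. In all 3 genes the double-negative fraction was the highest and the single-positive fraction stood at 0.723, 0.754 and 0.618 of it. Over the 8 genes this ratio ran from 0.541 to 0.754. The summed fibroblast and T lymphocyte markers are higher in the same 2 fractions, as given above. Of the 8, 4 belong to the flagged set described further down.

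The ends of the series show more. In double-positive against double-negative cells 13 carriers (5.88%) were higher, where 3.81% of all rows were, and 22 (9.95%) were lower, where 12.2% were. Among the 150 carriers reaching 5 FPKM in a fraction the balance turned round, with 11 higher and 7 lower, where 4.21% and 9.60% of the 10129 such rows were. All 13 higher genes also ran in the order double-positive, single-positive, double-negative from high to low. So did 96.1% of all 518 rows higher in this comparison, and the choice fixes the ends of that order. Of the 13 genes, 10 missed 2-fold in each of the 2 single steps. The share of the 518 rows that missed it in both steps was not counted. Over all 221 genes, without that choice, the order was found in 32.6%, and the opposite order in 43.9%, against 34.8% and 37.2% of all rows.

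The higher carriers came from every one of the classes amino acid, sugar, ion, nucleotide, other mitochondrial and other. Slc28a1 had the largest difference, 1.86, with 33.2 FPKM in double-positive, 23.4 in single-positive, 8.42 in double-negative, 25.9 in Zscan4-positive and 18.7 in Zscan4-negative cells. Slc15a1 was at 7.19, 4.90, 1.72, 7.11 and 5.66 FPKM in that order of fractions. The double-negative fraction was the lowest of the 5 for both genes, which their choice for a low double-negative value largely fixes. The other fractions were spread above it. Slc44a1 was at 40.02, 35.1, 16.7, 30.2 and 27.4 FPKM. For Slc17a9, which loads nucleotides such as ATP into vesicles, the values were 30.7, 22.5, 11.4, 14.1 and 13.2 FPKM, so that both Zscan4 fractions lay near the double-negative level. It was also the only carrier higher in double-positive than in Zscan4-negative cells (difference 1.16).

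Metal and metabolite carriers followed. The zinc importer Slc39a4 (ZIP4), known from zinc uptake in the gut, was at 26.1 FPKM in double-positive, 20.6 in single-positive, 10.3 in double-negative, 23.9 in Zscan4-positive and 18.1 in Zscan4-negative cells. Slc30a2, which moves zinc into vesicles, was at 6.65, 4.79, 2.37, 4.27 and 5.78 FPKM. A zinc importer and a zinc exporter of the cytosol thus had the same order over the 3 Esrrb and Tbx3 fractions. Slc25a20, the mitochondrial carnitine and acylcarnitine carrier of fatty acid oxidation, was at 34.0, 21.5, 13.4, 29.0 and 21.6 FPKM. Slc37a1, a carrier of glucose phosphate, was at 18.0, 12.05, 7.45, 14.8 and 10.1 FPKM. Slc4a11, a member of the bicarbonate carrier family known from the cornea, was at 7.48, 5.25, 2.58, 9.26 and 6.79 FPKM. For these 3 the double-negative value was again the lowest, as the choice of the genes largely fixes. Slc6a8, the X-linked creatine importer, was at 48.9, 37.3, 23.0, 64.5 and 35.3 FPKM, with a difference of 1.06 that became 0.94 with columns scaled to equal totals. The list is completed by Slc7a3 (CAT3), an importer of arginine and lysine at 150.3 against 74.3 FPKM with a difference of 1.01, and by 2 low genes seen after the fact, Slc1a1 (1.37) and the riboflavin importer Slc52a3 (1.59), at 3.96 against 0.645 FPKM.

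The Zscan4 line gave a second reading of these 13 genes in cells sorted on another reporter. Zscan4-negative cells were above the double-negative level for all 13, and for 98.1% of the 518 higher rows, and for 10 they were nearer to the double-positive than to the double-negative level on the log2 scale. The 3 exceptions were Slc17a9, Slc1a1 and Slc37a1. The share of the 518 rows that were nearer to the double-positive level was not counted. No test of this was possible with 1 value each, and since the 13 were chosen for a low double-negative value, it describes how far the other line stood from that value and no more.

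**Figure D2:**
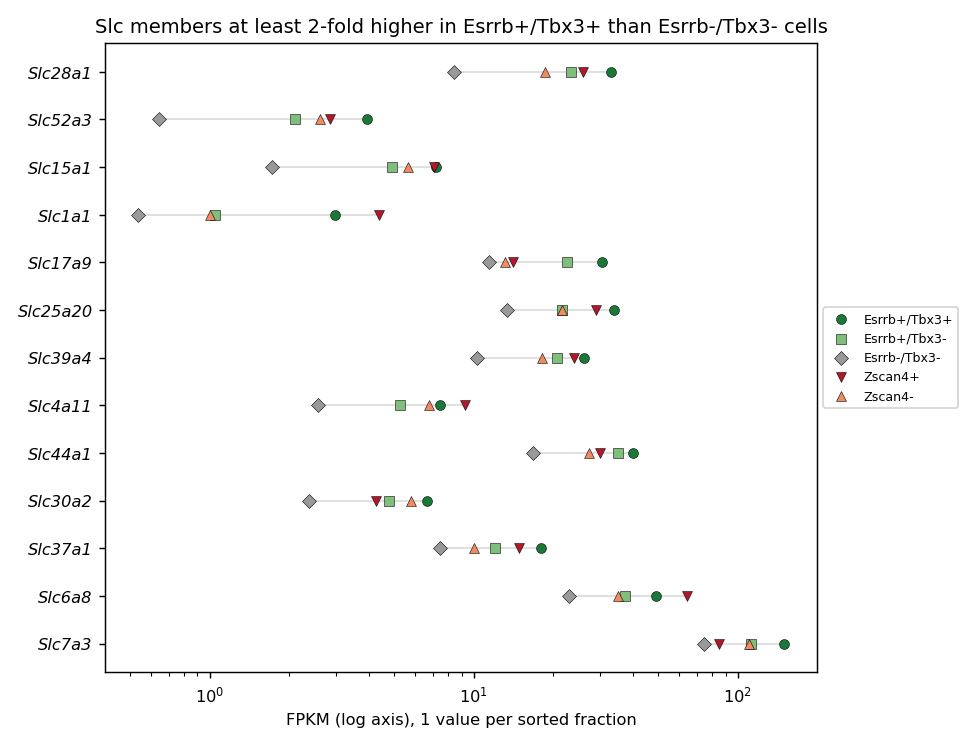
FPKM (log axis) of the 13 Slc genes at least 2-fold higher in Esrrb+/Tbx3+ than in Esrrb-/Tbx3- cells, 1 point per sorted fraction and no error bars because the table holds 1 value each. The grey diamond of the Esrrb-/Tbx3- fraction is the leftmost point in every row, which the choice of the genes largely fixes.

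Of the 22 lower carriers, 6 were ion, 4 amino acid, 4 nucleotide, 3 sugar, 3 other, 1 carboxylate and 1 other mitochondrial carriers. Most were low: their median was 4.57 FPKM in double-negative cells, and 14 of the 22 were under 1 FPKM in double-positive cells. The matching values over all 1656 rows lower in this comparison were not counted, so this describes the 22 genes and no more. All 22 ran in the order double-negative, single-positive, double-positive from high to low, and all 22 were also lower in Zscan4-negative than in double-negative cells. The choice of the 22 for a high double-negative value largely fixes both: 96.8% and 99.2% of all 1656 rows chosen the same way did so. Of the 22, 8 meet the flag rule given below, and 7 reached 1 FPKM in double-negative cells only. For the 8 and the 7 the matching shares of the 1656 rows were not counted. Single-positive values divided by double-negative ones had a median of 0.642 over the 22, beside 0.682 over all 1656 lower rows, and lay between 0.6 and 0.8 for 59.1% of the 22 and 60.9% of the 1656. The fibroblast and T lymphocyte marker sums give the same kind of order, as listed above, and their part in these values was not tested.

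By the rule on size and level 7 of the 22 are named. Slc43a3 (-2.21), Slc16a10 (-2.05) and Slc48a1 (-1.55) have been given. Slc25a24, a mitochondrial carrier that exchanges ATP-magnesium for phosphate, was at 0.734 FPKM in double-positive, 3.63 in single-positive and 6.70 in double-negative cells, a difference of -2.15 between the ends, with 1.29 FPKM in Zscan4-positive and 0.979 in Zscan4-negative cells. Slc25a37 (mitoferrin 1), which brings iron into mitochondria, was at 3.89, 8.21 and 10.03 FPKM. Slc43a2, a carrier of large neutral amino acids, was at 3.46, 5.28 and 8.75 FPKM, and Slc35c1, the Golgi carrier of GDP-fucose, at 2.18, 4.02 and 5.76 FPKM. In each of these 4 the single-positive value lay between the 2 ends. The iron exporter Slc40a1 (ferroportin), chosen after its values were seen, stood apart from the other 21 in that Zscan4-negative cells, at 4.54 FPKM, nearly had the double-negative level of 4.80 FPKM, while double-positive cells were at 1.78 FPKM.

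Rows were flagged where double-positive, Zscan4-positive and Zscan4-negative cells all had at most 0.25 of what double-negative cells had. This held for 8 carriers (3.62%), beside 6.34% of all 13595 rows. They include Slc22a3 (an organic cation carrier), Slc16a5 (a monocarboxylate carrier), Slc25a24, Slc25a45 (a mitochondrial carrier) and Slc35d3 (of the nucleotide sugar family). The others are of the sugar class: Slc2a10 and Slc2a9 of the SLC2 family and Slc5a9, a sodium-coupled carrier of the SLC5 family. No amino acid carrier and no ion carrier was among the 8, though ion carriers such as Slc9a9 and Slc9a7 lay just outside the limit, as given below. So few genes allow no reading by class. Slc22a3 was at 0.0626 FPKM in double-positive, 3.44 in single-positive, 4.98 in double-negative, 0.0564 in Zscan4-positive and 0.0547 in Zscan4-negative cells. Slc16a5 was at 0.156, 3.28, 4.94, 0.276 and 0.234 FPKM in that order. Both were thus near 0 in 3 fractions and at several FPKM in single-positive and double-negative cells. Slc25a45 was at 0.637, 2.79, 4.06, 0.377 and 0.436 FPKM, and the remaining 4 did not exceed 1.65 FPKM anywhere.

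The rule does not use the single-positive level, although it does use the double-negative level it is divided by here. In single-positive cells the 8 genes stood at 0.518 to 0.773 of the double-negative level, with a median of 0.675, beside 0.696 over all 862 flagged rows of the table. Only Slc25a24 reached 5 FPKM in any fraction. Just inside the limit of 0.25 lay Slc25a24, whose highest ratio was 0.193, and just outside it Slc9a9, a sodium-proton exchanger of endosomes, with 0.251. Slc9a9 was at 0.0461 FPKM in double-positive, 2.77 in single-positive, 4.11 in double-negative, 1.03 in Zscan4-positive and 0.0355 in Zscan4-negative cells, so its Zscan4-positive value alone kept it out. Among others just outside were Slc9a7 (0.263) and Slc48a1 (0.298). Without the 8 flagged genes 14 carriers in place of 22 were lower between the ends, and 4 in place of 8 in the Tbx3 step.

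**Figure D3:**
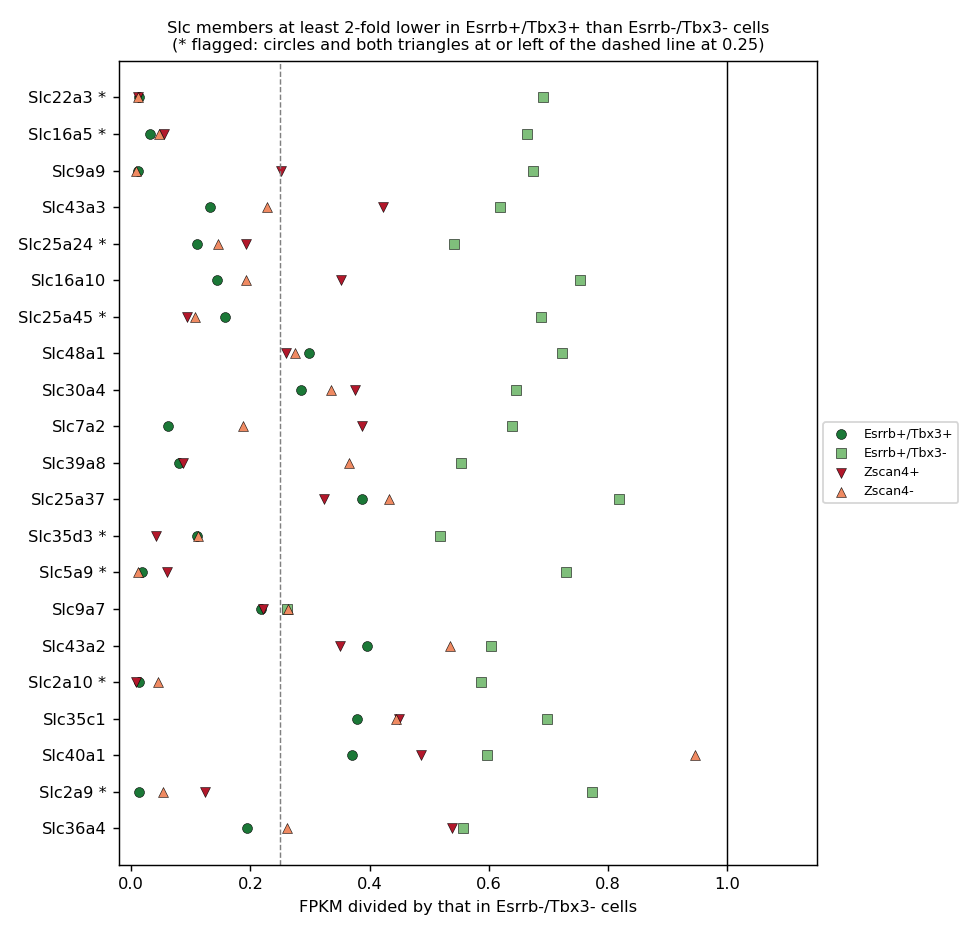
Level of 21 of the 22 Slc genes at least 2-fold lower in Esrrb+/Tbx3+ than in Esrrb-/Tbx3- cells, as a ratio to the Esrrb-/Tbx3- fraction (solid line at 1), 1 point per other fraction; stars mark the 8 flagged genes and the dashed line the limit of 0.25. Squares of the Esrrb+/Tbx3- fraction lie between 0.518 and 0.819 for all genes shown other than Slc9a7.

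Carriers of like substrates differed in how their levels ran over the fractions. Ranks between different genes are uncertain, as given above, so any order within a pair is one of FPKM values only. Slc2a3 was at 508 FPKM in double-positive, 411 in single-positive, 277 in double-negative, 665 in Zscan4-positive and 430 in Zscan4-negative cells, whereas Slc2a1 was at 316, 326, 389, 429 and 427 FPKM. The level of Slc2a3 was therefore above that of Slc2a1 in 4 fractions, by only a little in Zscan4-negative cells, and below it in double-negative cells. Neither gene passed 2-fold in any comparison: Slc2a3 differed by 0.87 and Slc2a1 by -0.30 between double-positive and double-negative cells. Below 2-fold too, the myo-inositol importer Slc5a3 was at 21.0 FPKM in double-positive, 35.3 in single-positive and 39.6 in double-negative cells (-0.88 between the ends). Among choline carriers Slc44a1 was at 40.02 and Slc44a2 at 25.8 FPKM in double-positive cells, against 16.7 and 37.2 FPKM in double-negative cells. The peptide importers Slc15a1 and Slc15a2 were at 7.19 and 2.00 FPKM in double-positive cells, against 1.72 and 3.75 FPKM in double-negative cells. For the cationic amino acid carriers Slc7a3 and Slc7a7, of which Slc7a7 works with the Slc3a2 heavy chain, the values were 150.3 and 74.2 FPKM in double-positive cells, against 74.3 and 105 FPKM in double-negative cells. In these 4 pairs the gene with the higher level in double-positive cells was the one with the lower level in double-negative cells. The pairs were chosen after the values were seen and show no rule for the class. Slc16a1 and Slc16a3 were at 41.7 and 49.2 FPKM in double-positive cells, against 41.5 and 79.0 FPKM in double-negative cells, and so kept their order, and the nucleoside carriers Slc28a1 and Slc29a2 were at 33.2 and 8.80 against 8.42 and 7.14 FPKM.

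**Figure D4:**
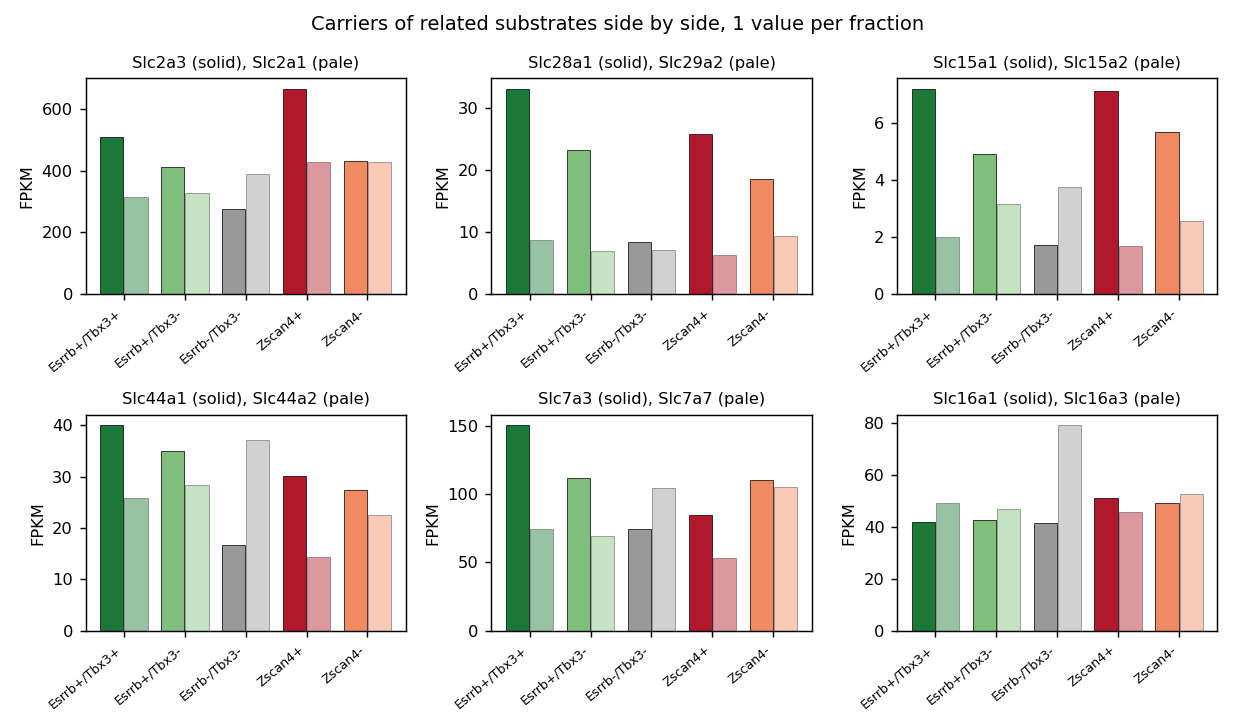
FPKM of 6 pairs of carriers with like substrates in the 5 sorted fractions, 1 bar per gene and fraction (solid and pale, as titled) with axes from 0 and no error bars. Slc2a3 exceeds Slc2a1 in Esrrb+/Tbx3+ cells (508 against 316 FPKM) and is below it in Esrrb-/Tbx3- cells (277 against 389 FPKM). Ranks between different genes are uncertain.

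Summed by class, the levels moved little between double-positive and double-negative cells: 1200 against 1129 FPKM for amino acid, 948 against 800 FPKM for sugar, 1293 against 1229 FPKM for ion and 1432 against 1224 FPKM for nucleotide carriers. Class medians of the differences between these fractions were -0.15, -0.13, -0.001 and -0.23 in the same order, beside -0.02 over all rows and -0.12 over the 221 genes. As a share of the summed Slc level, which sets aside the higher column total of double-positive cells, amino acid carriers made up 20.1% in double-positive against 20.7% in double-negative cells, sugar carriers 15.9% against 14.7%, ion carriers 21.7% against 22.6% and nucleotide carriers 24.0% against 22.5%. The order of the fractions was thus turned round for amino acid and ion carriers, and for these no direction is given. Among the 94 carriers with a mean of at least 10 FPKM over the 5 fractions the median was 0.08, beside 0.11 over the 7063 such rows of the table. The SLC12 chloride cotransporters had a median of 0.55 with none past 2-fold, and the nucleotide sugar carriers a median of -0.26 with 2 of 14 lower.

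The Zscan4 sort compared Zscan4-positive with Zscan4-negative cells of the other line, the fraction of the rare state against the rest. Here 4 of 221 carriers (1.81%) were higher, where 3.46% of all rows were, and 1 (0.452%) was lower, where 0.875% were. Slc4a5, a sodium bicarbonate cotransporter gene (chromosome 6, 83237375 to 83304945, plus strand), had 14.8 FPKM with Zscan4 reporter signal against 3.90 FPKM without, a difference of 1.69, and was at 7.95, 5.23 and 4.16 FPKM in double-positive, single-positive and double-negative cells. Slc25a31, an ADP/ATP exchanger known from male germ cells, was at 6.28 against 1.77 FPKM (1.40) and between 0.530 and 1.64 FPKM in the fractions of the other line. Slc25a14, an X-linked mitochondrial carrier of the uncoupling protein family, was at 12.3 against 4.89 FPKM (1.18) and between 4.34 and 4.56 FPKM in the other line. The Zscan4-positive fraction was thus the highest of all 5 for these genes. The fourth, the glutamate importer Slc1a1, was at 4.37 against 1.00 FPKM (1.43), with the exon overlap given above, and was picked out after its values were seen. The lower gene was Slc39a14 (ZIP14), an importer of zinc, iron and manganese, at 15.0 against 31.5 FPKM (-1.02).

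The 250 bases before the start of the 2 genes with the largest named differences are given in the same way, with CG pairs in capitals, chr6:83237125-83237374 for Slc4a5 and chr3:40708621-40708870 for Slc25a31, both on the plus strand.
Slc4a5: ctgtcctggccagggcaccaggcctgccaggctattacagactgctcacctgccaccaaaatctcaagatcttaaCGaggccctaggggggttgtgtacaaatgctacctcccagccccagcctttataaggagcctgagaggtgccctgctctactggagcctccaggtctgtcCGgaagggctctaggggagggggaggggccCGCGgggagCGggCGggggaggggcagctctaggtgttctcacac
Slc25a31: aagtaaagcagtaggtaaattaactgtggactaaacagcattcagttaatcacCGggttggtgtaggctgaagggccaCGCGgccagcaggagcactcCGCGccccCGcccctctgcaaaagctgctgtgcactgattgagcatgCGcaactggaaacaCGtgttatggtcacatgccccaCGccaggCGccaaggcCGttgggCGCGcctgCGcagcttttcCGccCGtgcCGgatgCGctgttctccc
They hold 6 and 18 CG pairs, and neither holds one of the 3 motifs.

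Below 2-fold, 21 of the 37 amino acid carriers (56.8%) were lower in Zscan4-positive than Zscan4-negative cells by any amount, with a median difference of -0.07, beside 51.5% of all rows. Of the 20 amino acid carriers with a mean of at least 10 FPKM, 15 were lower (median -0.20), beside 56.2% of all 7063 such rows (median -0.04). Abundant carriers of other classes leaned the same way, with 16 of 24 ion (-0.16) and 9 of 13 nucleotide carriers (-0.14) lower, and 59.6% of all 94 abundant Slc genes (-0.11), so this is not shown to be particular to amino acid carriers. Slc7a7, which with Slc3a2 exchanges cationic for neutral amino acids, was at 53.3 FPKM in Zscan4-positive against 105 FPKM in Zscan4-negative cells (-0.97), and Slc38a1, a glutamine importer, at 22.6 against 32.7 FPKM (-0.51). Slc1a5 (ASCT2), another glutamine carrier, was at 25.8 against 23.8 FPKM and so ran the other way. The amino acid class summed to 906 FPKM in Zscan4-positive cells, against 1089 FPKM in Zscan4-negative cells, and made up 15.7% and 18.5% of the summed Slc level. For sugar carriers the sums were 1209 and 968 FPKM, or 21.0% and 16.4%, of which Slc2a3 alone had 665 and 430 FPKM. The creatine importer Slc6a8 was at 64.5 against 35.3 FPKM (0.85) and the riboflavin importer Slc52a2 at 11.3 against 6.98 FPKM (0.62).

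**Figure D5:**
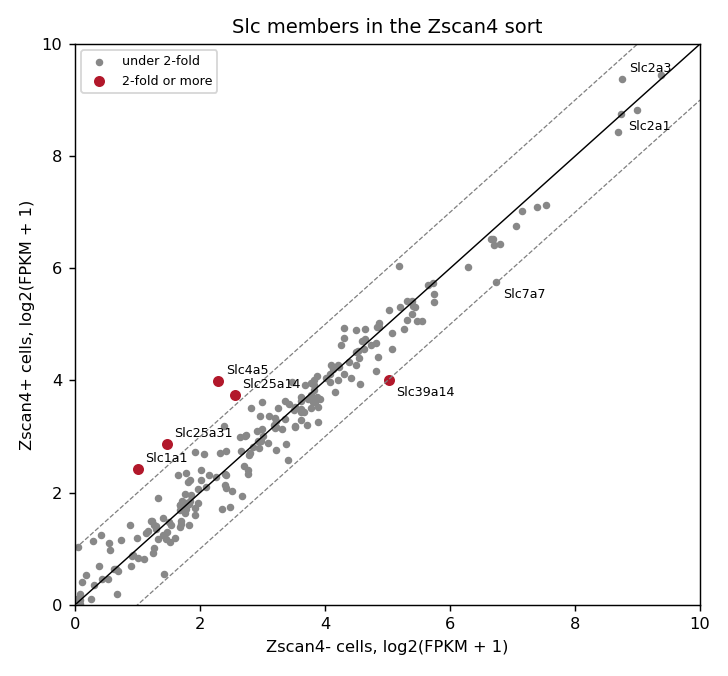
Log2(FPKM + 1) of the 221 Slc genes in Zscan4+ (vertical) and Zscan4- cells (horizontal), 1 point per gene; the solid line is equality and dashed lines mark 2-fold. The 5 red genes are past 2-fold, and Slc7a7 lies just inside the lower line at 53.3 against 105 FPKM.

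The 2 lines were also set side by side, double-positive minus Zscan4-negative cells, as the nearest thing to a repeat that the table holds. Of 221 carriers 1 was higher, Slc17a9, where 0.743% of all rows were, and 1 was lower, where 0.816% were. The median difference was 0.01 over the carriers and 0.01 over all rows. Genes near 2-fold here included Slc1a1 (0.99) and Slc40a1 (-0.99). The lines differ in reporter and sort, so this is no measure of replicate error.

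Carriers and carrier chaperones whose symbols do not begin with Slc were read from a list of 52 genes, of which 35 reached 1 FPKM. In double-positive against double-negative cells 1 was higher, Slco4c1, an organic anion carrier, at 8.30 against 2.80 FPKM, and 4 were lower, Spns3, Sfxn3, Slco3a1 and Slco2a1, where 3.81% of all rows were higher and 12.2% lower, so neither count stands out. Sfxn3, of the sideroflexin family of mitochondrial carriers, was at 3.01 in double-positive, 7.53 in single-positive and 9.75 FPKM in double-negative cells. In the Esrrb step 1 of the 35 was higher (Slco4c1) and none lower, where 1.82% and 1.43% of all rows were. In the Tbx3 step none was higher and 2 were lower (Spns3 and Sfxn3), where 0.346% and 6.94% were, and in the Zscan4 sort 1 was higher and none lower, where 3.46% and 0.875% were. That gene was Mfsd12, a cysteine carrier of lysosomes and melanosomes, at 28.2 against 10.2 FPKM. Bsg, the chaperone of the lactate carriers, was at 185 FPKM in double-positive and 217 FPKM in double-negative cells.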

How the data were processed

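Although titled as counts, the deposited file gives the authors' FPKM, 1 value for each gene and sorted fraction. The submitters' processing notes name mm10, Cuffdiff 2.2.1, Cufflinks, TopHat2 2.0.14 and bcl2fastq 1.8.4. For annotation, merging of the 2 libraries and normalization, details were not given in the sources used here. Depth and replicate spread are therefore unknown, and no test was run: the design named limma only for replicate columns. Rows with at least 1 FPKM in a fraction were compared as differences of log2(FPKM + 1), which understates low genes, with a 2-fold call. The calling step was run on copies of the double-negative values, with set fold changes in rows of at least 5 FPKM and no noise. That checks its arithmetic only and gives no error rate. Each symbol has 1 row. All 221 symbols matched RefSeq symbols or synonyms; 168 had promoter windows (RefSeq, GRCm38.p6). Table starts count from 0 and are written from 1. The members, classes and lists were chosen with earlier results of these data known. Named genes are up to 10 per direction past 2-fold that reach 5 FPKM in the higher of the compared fractions, the 4 most abundant per class, flagged genes at 5 FPKM in double-negative cells, and listed carriers outside the Slc names; any further gene was picked with its values in view. Results of some genes are counted but not reported here by name. Alternatives covered pseudocounts, filters, 2 scalings, the flag and the fold. Python 3.11.15, pandas 2.3.3, numpy 2.4.6 and matplotlib 3.10.9 were used.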

Additional observations from a re-analysis of the deposited data

How the results depend on the processing

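No paired analysis was possible because the table holds 1 merged value per fraction, and for the same reason no replicate could be left out. Counts of Slc genes called are given as higher and lower. Apart from the shares given above, the matching shares of all rows were not counted at these settings. The counts therefore describe only how the Slc calls moved. Against 3 and 2 in the Esrrb step, 0 and 8 in the Tbx3 step, 13 and 22 between double-positive and double-negative cells, 4 and 1 in the Zscan4 sort and 1 and 1 between the lines, a pseudocount of 0.1 gave 6 and 6, 1 and 21, 10 and 3 in the Zscan4 sort, and 5 and 6 between the lines. With a pseudocount of 0.5 the Esrrb step had 5 higher, the Tbx3 step 1 and 14, the Zscan4 sort 7 and 2 and the lines 2 and 2. Without a filter and with 0.1, chosen after seeing the data, the 5 comparisons had 9 and 11, 1 and 28, 25 and 46, 25 and 4, and 9 and 7. With at least 5 FPKM, lower counts were 0 in the Esrrb step, 4 in the Tbx3 step, 7 between the ends, with 11 higher, and 0 between the lines. Equal totals gave 2 lower in the Zscan4 sort and 2 between the lines, and median ratio scaling 2 higher between the lines. Equal totals moved the median of all rows between double-positive and double-negative cells to -0.12, and that of the carriers to -0.24. Without flagged genes 4 were lower in the Tbx3 step and 14 between the ends. A 1.5-fold call gave 20 and 13, 3 and 24, 30 and 54, 16 and 10, and 9 and 6. A flag ratio of 0.1 left 4 genes and one of 0.5 gave 23. The remaining counts stayed within 1.5 times. Among the 27 values of named genes past 2-fold, none changed sign, and 2 slipped under 2-fold, Slc44a1 and Slc6a8 with equal totals; the other settings tried on single genes were median ratio scaling and a pseudocount of 0.1. The pseudocount sets how many low genes pass; other causes were not tested.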
